A study of Mus musculus with 9 samples.

Results

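The integrin alpha chains are membrane proteins that, each joined to a beta chain, hold a cell to its matrix or to other cells. The expression of 10 of them was measured, out of 20690 genes tested: Itga1, Itga2, Itga3, Itga4, Itga5, Itga6, Itga7, Itga8, Itga9 and Itgav. The chains were taken by symbol from the gene table, and all 10 were found. The family was chosen by its log2 levels on these same 9 arrays, after an earlier look in which Itga8, Itga1 and Itga4 had stood out between tumour lines and neural stem cells. The levels and differences of the 10 chains are therefore given as a description of these arrays, without a p-value for any of them.

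The 9 arrays (Affymetrix Mouse Gene 1.0 ST, which read a transcript with probes along its length) hold RNA of cells that were cultured from the subventricular zone after brain electroporation in mice, in 3 groups of 3. The Erbb2 lines are gliomas electroporated with EGFP and an Erbb2 gene carrying the V664E mutation, and the Hras lines are gliomas electroporated with an EGFP-Hras fusion carrying G12V. The neural stem and progenitor cells (NSC) received reporters without an oncogene. NSC 1 got membrane EGFP, NSC 2 got Histone 3.3-EGFP, and NSC 3 got no EGFP. All groups also received the nuclear blue protein TagBFPnls-V5 and a plasmid labelled pBase, and grew in serum-free medium with EGF and FGF before a sort for high GFP. For NSC 3 the description reads as sorted on blue fluorescence instead, and that of the array titled Hras line 3 carries the number 4. The mice were CD1, except that NSC 3 came from C57/Bl6 Dnm2 floxed mice, without Cre according to its label. Ages are not given. Whether each line is from its own animal is not stated, so the p-values below reflect array-to-array spread alone, which may be technical.

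Integrins signal in both directions across the membrane: talin and kindlins bind the beta tail to switch the receptor on, and a bound receptor gathers kinases and actin linkers at the adhesion. The alpha chain sets most of the ligand choice. Itga1 and Itga2 bind collagens, Itga3, Itga6 and Itga7 bind laminins, Itga5, Itga8 and Itgav bind matrix proteins with an Arg-Gly-Asp motif such as fibronectin, and Itga4 and Itga9 bind VCAM1, fibronectin segments or tenascin C. In the subventricular zone, stem cells are known to hold to laminin through integrins that contain Itga6.

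Itga8, Itga1, Itga4 and Itga9 were the 4 chains whose level in each of the 6 tumour lines lay above each NSC array. The RefSeq sequence of the 250 bases before their transcription starts (mouse build GRCm38.p6, read 5′ to 3′ on the gene's strand) is shown because these chains were high in the same lines and the series concerns Ets transcription factors. Capitals mark the letters CCGGAA or AGGAAG on either strand, which hold the GGAA core that Ets factors bind.
Itga1, chr13:115101965-115102214, minus strand: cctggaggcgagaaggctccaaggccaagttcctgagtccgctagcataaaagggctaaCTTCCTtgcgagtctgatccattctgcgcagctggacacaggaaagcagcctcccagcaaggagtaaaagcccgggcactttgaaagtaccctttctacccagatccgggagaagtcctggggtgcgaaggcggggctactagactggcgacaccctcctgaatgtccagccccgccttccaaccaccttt
Itga4, chr2:79255176-79255425, plus strand: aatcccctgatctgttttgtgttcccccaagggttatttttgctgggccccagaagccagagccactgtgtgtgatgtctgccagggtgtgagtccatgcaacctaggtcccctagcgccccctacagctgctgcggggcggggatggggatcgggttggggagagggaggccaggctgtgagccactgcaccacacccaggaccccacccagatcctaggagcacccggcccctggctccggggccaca
Itga8, chr2:12301945-12302194, minus strand: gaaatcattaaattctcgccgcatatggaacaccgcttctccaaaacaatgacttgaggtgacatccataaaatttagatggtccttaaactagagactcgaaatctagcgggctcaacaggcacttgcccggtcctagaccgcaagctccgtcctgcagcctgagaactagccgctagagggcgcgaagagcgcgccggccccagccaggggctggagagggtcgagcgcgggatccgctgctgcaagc
Itga9, chr9:118711442-118711691, plus strand: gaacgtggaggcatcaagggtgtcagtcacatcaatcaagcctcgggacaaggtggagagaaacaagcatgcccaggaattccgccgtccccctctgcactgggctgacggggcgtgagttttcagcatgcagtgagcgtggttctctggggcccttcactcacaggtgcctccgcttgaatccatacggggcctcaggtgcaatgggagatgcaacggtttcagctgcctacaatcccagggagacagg

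Only the Itga1 window of these 4 held such a match, 1 copy of AGGAAG read on the opposite strand. Over all 32851 promoter windows of the RefSeq table, 29.5% held AGGAAG and 12.0% held CCGGAA on either strand. For 8 of the 10 chains the table has a window, 9 windows in all with 2 for Itga3. Of those 9 windows 3 held AGGAAG (Itga1, Itgav and 1 of Itga3) and 1 held CCGGAA (the same window of Itga3). The AP-1 letters TGANTCA, the TATA box letters TATAAA and the CArG box of serum response factor, which can itself hold the TATA box letters, were found in 0 of the 9 windows, against 6.75%, 12.4% and 1.47% of all windows. The GC box GGGCGG was found in 4 of the 9 windows, against 32.7% of all. A match or its absence concerns these letters in these 250 bases, and no binding was measured.

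Itga8, the chain whose main matrix ligand in the kidney is nephronectin, had log2 levels of 11.20, 10.46 and 11.43 in Erbb2 lines 1, 2 and 3, and 10.31, 11.02 and 9.19 in Hras lines 1, 2 and 3. In NSC 1, 2 and 3 it had 6.22, 5.18 and 6.37. The lowest tumour line, Hras 3, was well above the highest NSC array, and the tumour and NSC arrays did not overlap. The group means were 11.03 ± 0.51 in Erbb2 lines, 10.18 ± 0.92 in Hras lines and 5.92 ± 0.65 in NSC (SD, n = 3 each). The difference from NSC was 5.11 (SE 0.50) in Erbb2 lines, the highest of all 20690 genes, and 4.25 (SE 0.50) in Hras lines, the rank 4 from the top. These differences correspond to 34.5-fold and 19.1-fold, and as NSC 2 lay under 5.31, the dim limit used here (the 25th percentile of all log2 values), the fold rests in part on a level not shown to be above background. In bulk RNA of a culture, fewer cells that express a gene and less RNA per cell cannot be told apart.

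Itga1, a collagen receptor chain, had levels of 9.75, 7.95 and 9.26 in Erbb2 lines 1 to 3 and 9.79, 9.32 and 8.07 in Hras lines 1 to 3. Its NSC levels were 6.32, 6.38 and 5.77. Both tumour groups lay above NSC without overlap, and Erbb2 2 and Hras 3 were the lowest tumour lines. The group means were 8.99 ± 0.93, 9.06 ± 0.89 and 6.16 ± 0.34 in Erbb2 lines, Hras lines and NSC (SD, n = 3 each), which put the chain 2.83 (SE 0.53) and 2.90 (SE 0.53) log2 units above NSC.

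Itga4, a chain that binds VCAM1 in leukocytes, had 10.97, 10.10 and 8.97 in Erbb2 lines 1 to 3 and 10.14, 10.32 and 9.29 in Hras lines 1 to 3. In NSC it had 7.66, 6.86 and 7.09. Line 3 of each oncogene was the lowest of its group and still lay above every NSC array. The differences from NSC were 2.81 (SE 0.49) for Erbb2 lines and 2.71 (SE 0.49) for Hras lines, from means of 10.01 ± 1.00, 9.92 ± 0.55 and 7.20 ± 0.41 (SD, n = 3 each).

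Itga9, the nearest relative of Itga4 in sequence and a receptor of tenascin C, had 8.85, 7.84 and 7.55 in Erbb2 lines 1 to 3 and 9.35, 8.01 and 6.30 in Hras lines 1 to 3. Its NSC levels were 5.89, 5.31 and 5.99, with NSC 2 just under the dim limit. Hras 3 was only a little above NSC, while Hras 1 was the highest array of all. The differences from NSC were 2.35 (SE 0.67) in Erbb2 lines and 2.16 (SE 0.67) in Hras lines, the latter 1.43 without Hras 1 and 2.95 without Hras 3.

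**Figure D1:**
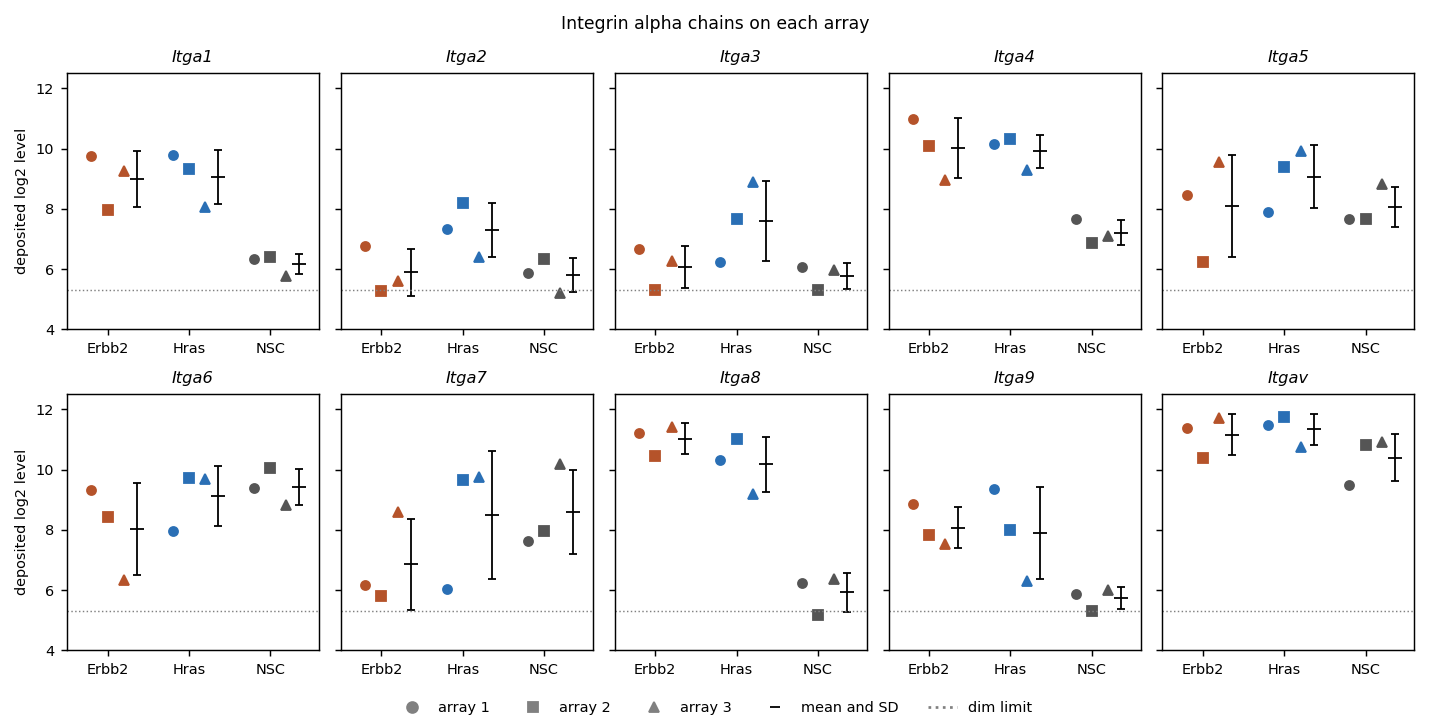
Deposited log2 level of each of the 10 alpha chains on the 9 arrays, by group, with the group mean and SD (n = 3) as a black bar and the dim limit of 5.31 as a dotted line. Itga1, Itga4, Itga8 and Itga9 lie higher on all 6 tumour arrays than on the 3 NSC arrays, while Itga5, Itga6 and Itga7 spread widely within the tumour groups; levels are not comparable between genes.

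The other chains did not separate the tumour lines from NSC as a whole. Itga2, the second collagen receptor chain, had 6.78, 5.28 and 5.61 in Erbb2 lines 1 to 3, 7.32, 8.19 and 6.39 in Hras lines 1 to 3, and 5.87, 6.32 and 5.19 in NSC 1 to 3. The Hras lines lay above NSC, with Hras 3 at 6.39 next to NSC 2 at 6.32, and the Erbb2 lines overlapped NSC. Its differences from NSC were 1.51 (SE 0.53) in Hras lines and 0.09 (SE 0.53) in Erbb2 lines, which turned to -0.35 without Erbb2 1 and -0.21 without NSC 3, and Erbb2 2 and NSC 3 were under the dim limit.

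Among the laminin receptors, Itga3 had 6.65, 5.29 and 6.27 in Erbb2 lines 1 to 3, 6.24, 7.67 and 8.89 in Hras lines 1 to 3, and 6.08, 5.29 and 5.96 in NSC 1 to 3. Hras 2 and Hras 3 were its highest arrays, Hras 1 was just above NSC 1 at 6.08, the Erbb2 lines overlapped NSC, and Erbb2 2 and NSC 2 were dim. The difference was 1.83 (SE 0.62) between Hras lines and NSC and 0.30 (SE 0.62) between Erbb2 lines and NSC. Without Hras 3 the first was 1.18, and the second ran from 0.005 without Erbb2 1 to 0.69 without Erbb2 2.

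Itga6, a stem cell surface marker in the subventricular zone, had 9.31, 8.43 and 6.33 in Erbb2 lines 1 to 3, 7.96, 9.72 and 9.69 in Hras lines 1 to 3, and 9.39, 10.05 and 8.84 in NSC 1 to 3. The NSC arrays were high throughout, and Erbb2 3 was the lowest array by far. Its means were 8.03 ± 1.53 in Erbb2 lines, 9.12 ± 1.00 in Hras lines and 9.42 ± 0.61 in NSC (SD, n = 3 each), so both differences from NSC, -1.40 (SE 0.76) and -0.30 (SE 0.76), came from groups that overlapped. The Erbb2 difference was -0.55 without Erbb2 3 and -2.04 without Erbb2 1, and the Hras difference turned to 0.28 without Hras 1.

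Itga7, a laminin receptor best known from muscle, had the widest spread among the tumour lines. Its levels were 6.18, 5.80 and 8.60 in Erbb2 lines 1 to 3, 6.03, 9.66 and 9.77 in Hras lines 1 to 3, and 7.62, 7.96 and 10.19 in NSC 1 to 3. Erbb2 1, Erbb2 2 and Hras 1 were low, Erbb2 3, Hras 2 and Hras 3 were high, and the split ran across both oncogenes. Its SD over the 6 tumour lines, 1.88, was higher than that of 99.3% of all genes. NSC 3, the array from another mouse strain, was the highest of the 9. The differences from NSC were -1.73 (SE 1.14) in Erbb2 lines and -0.10 (SE 1.14) in Hras lines. The first was -0.93 without NSC 3 and -2.60 without Erbb2 3, and the second turned to 1.13 without Hras 1 and 0.70 without NSC 3.

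Itga5, the fibronectin receptor chain, had 8.45, 6.25 and 9.56 in Erbb2 lines 1 to 3, 7.91, 9.37 and 9.93 in Hras lines 1 to 3, and 7.66, 7.68 and 8.81 in NSC 1 to 3. Erbb2 2 lay below the other 8 arrays, and both tumour groups overlapped NSC. The differences from NSC were 1.02 (SE 0.82) in Hras lines and 0.04 (SE 0.82) in Erbb2 lines, the latter from -0.70 without Erbb2 3 to 0.96 without Erbb2 2 and negative in 6 of 15 alternatives. The Hras difference was 0.59 without Hras 3 and 1.60 without Hras 1.

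Itgav, the partner of several beta chains, had 11.38, 10.40 and 11.71 in Erbb2 lines 1 to 3, 11.49, 11.76 and 10.75 in Hras lines 1 to 3, and 9.49, 10.81 and 10.90 in NSC 1 to 3. It varied least of the 10 chains, with a range of 2.28 over the 9 arrays, and NSC 1 was its lowest array. The differences from NSC were 0.93 (SE 0.48) in Hras lines and 0.76 (SE 0.48) in Erbb2 lines, and 0.48 and 0.31 without NSC 1.

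**Figure D2:**
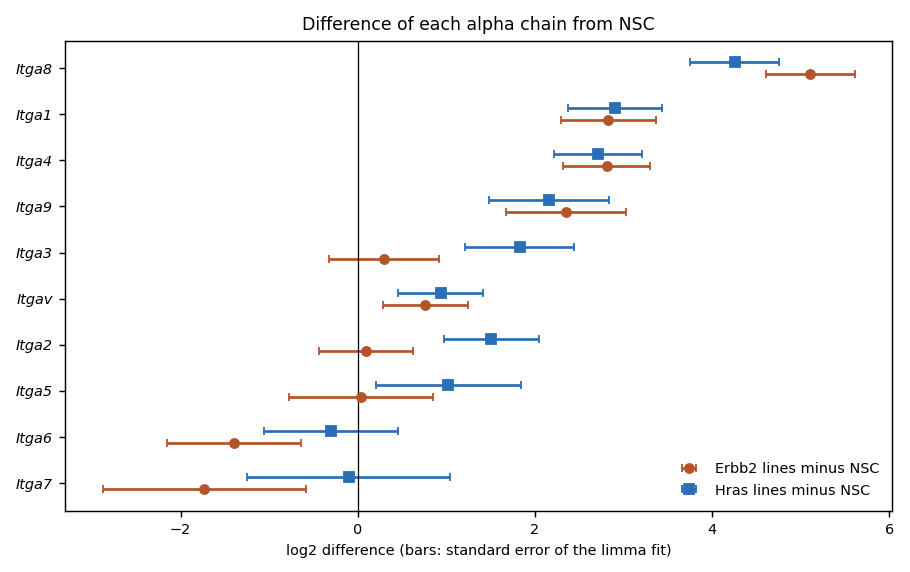
Log2 difference of each alpha chain from NSC in Erbb2 lines (circles) and Hras lines (squares), with the standard error of the limma fit as bars; both use the same 3 NSC arrays. Itga8, Itga1, Itga4 and Itga9 lie between 2.16 and 5.11 in both tumour groups, while Itga6 and Itga7 lie below 0.

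Over the 10 chains, 8 had a positive and 2 (Itga6 and Itga7) a negative difference in Hras lines against NSC, with a median of 1.67 where the median of all genes was 0.16 and 68.5% of them were above 0. In Erbb2 lines against NSC the signs were also 8 and 2, with a median of 0.53 where that of all genes was -0.14 and 36.7% were above 0. Of the 10, 6 were positive without Erbb2 1, and 7 after quantile normalization, with array weights, without Erbb2 3 and without each NSC array, as Itga5 or Itga2 turned negative. In Hras lines all 10 were positive without Hras 1, and 9 without NSC 2 or NSC 3. The Erbb2 median was 1.05 without Erbb2 2 and 0.33 without Erbb2 1. Both comparisons share the NSC arrays. The arrays were not on one scale, with medians over genes from 6.56 to 7.19 and the Hras arrays highest. Centring the arrays moved the median of all genes to -0.23 in Hras lines and -0.11 in Erbb2 lines against NSC, and the median of the 10 chains to 1.28 and 0.56. Itga8, Itga1, Itga4 and Itga9 then still lay 1.77 to 3.86 above NSC in Hras lines and 2.38 to 5.14 in Erbb2 lines.

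The tumour lines lay wholly above NSC for 4 of 10 chains against 2.87% of all genes, the Hras lines for 6 of 10 against 11.9%, and the Erbb2 lines for 4 of 10 against 5.09%. Since the chains were chosen on these arrays, nothing is read from these counts.

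On the deposited scale the chains overlapped throughout between the lines of the 2 oncogenes. Hras and Erbb2 lines there did not separate for any of the 10 chains, where they did for 27.7% of all genes. The Hras arrays had the highest medians over genes, and overlap under the other scalings is not given. The differences ran from -0.85 (SE 0.50) for Itga8 to 1.63 (SE 1.14) for Itga7, with 7 of 10 positive, where 78.8% of all genes were, and a median of 0.58 beside 0.29 for all genes. Itga1 and Itgav turned negative when arrays were centred, and Itga1 also after quantile normalization, which left 5 and 6 positive, and 9 were positive without Erbb2 1 or without Hras 3. With centred arrays the Itga8 difference was -1.27. Without Hras 3 it was -0.36, and without Hras 1 the Itga7 difference was 2.86. Without Erbb2 2 the median fell to 0.005, and it was 0.35 without Erbb2 3 and 0.38 without Hras 2. Erbb2 2 had the lowest level in its group of Itga1, Itga2, Itga3, Itga5, Itga7, Itga8 and Itgav. For Itga1, Itga4, Itga9 and Itgav the difference between the oncogenes was between -0.19 and 0.17, smaller than its standard error, and its sign turned for each of them when 1 line was left out.

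The likeness of the chains over the 9 arrays was described as well. It was measured as the root mean square of the difference in log2 level over the arrays after each gene's own mean was subtracted, so that 0 is an identical pattern. The most alike pairs were Itga4 with Itga9 (0.64), Itga1 with Itga9 (0.66) and Itga1 with Itga4 (0.67), and then Itga3 with Itga5 (0.74). The collagen receptor chains Itga1 and Itga2 stood 1.19 apart, though their genes are neighbours on the chromosome.

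The same measure picked other genes of like pattern for the 3 chains with the widest range, out of 14789 candidates above the dim limit. For Itga8 the nearest were Adamts5, an aggrecan-cleaving protease (0.99), Pcolce, an enhancer of collagen maturation (0.99), and Foxf1, a forkhead factor of mesenchyme (1.04), where the median gene was 2.31 away. For Itga7 they were the myosin Myo1e (0.53), the receptor kinase Mertk (0.55) and the zinc finger factor Glis3 (0.56), with the median gene at 1.61. For Itga4 they were the lipid phosphatase Ppap2c (0.46), Lhfpl2 (0.47) and again Adamts5 (0.47), with the median gene at 1.44. Foxf1 dropped to 7.05 in Hras 3 from 9.54 to 10.09 in the other tumour lines, and Hras 3 was also the lowest tumour line for Itga8 and Itga9.

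**Figure D3:**
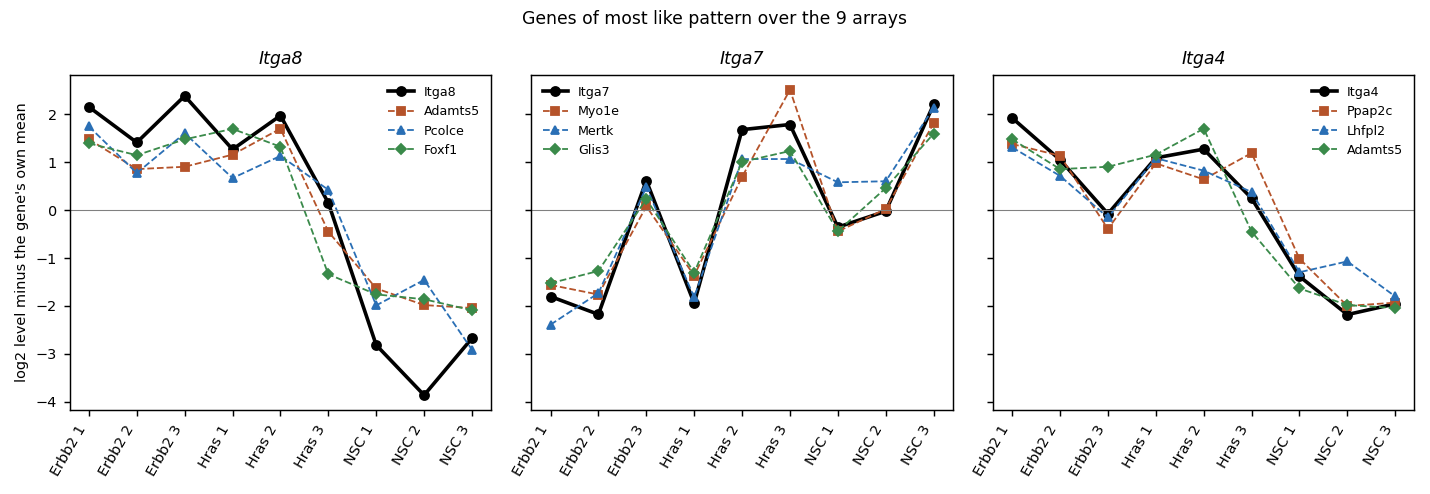
Log2 level minus the gene's own mean on each of the 9 arrays for Itga8, Itga7 and Itga4 (black) and for the 3 genes of most like pattern to each (coloured); the lines only join the points of a gene, since arrays have no order. Itga8 and Itga4 and their neighbours are low on the NSC arrays, while Itga7 and its neighbours are low on Erbb2 1, Erbb2 2 and Hras 1.

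Of the beta chains, limma called 0 of 8 in each comparison. At an unadjusted limma p under 0.05 there were 2 of 8 in Hras lines and in both tumour groups against NSC. Of all 20690 genes 2481 and 2078 were. In Erbb2 lines against NSC and between the oncogenes there was 1 of 8, where 1909 and 2625 of all genes were. Itgb1, the partner of all the alpha chains here, had 11.11, 10.98 and 11.35 in Erbb2 lines, 11.40, 11.69 and 11.29 in Hras lines and 10.75, 10.69 and 10.81 in NSC. Each tumour line lay above each NSC array, by a mean difference of 0.56 (SE 0.17, limma adjusted p = 0.279, and 0.227 to 0.492 over the alternatives). With centred arrays the Itgb1 difference was 0.37, and between the oncogenes it turned from 0.31 to -0.11. Itgb8, which pairs with Itgav and helps to activate latent TGF-beta, ran the other way. It had 8.67, 9.45 and 8.86 in Erbb2 lines, 8.58, 9.37 and 6.93 in Hras lines and 10.23, 11.45 and 10.92 in NSC. All 6 tumour lines lay below NSC, by -2.23 on average (SE 0.50, limma adjusted p = 0.142, and 0.0683 to 0.369 over the alternatives).

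The remaining beta chains overlapped between the 6 tumour lines and NSC. Itgb3, another partner of Itgav, was between 6.75 and 7.14 in Hras lines and between 6.04 and 6.28 in NSC, without overlap (difference 0.80, SE 0.45, limma adjusted p = 0.537), while in Erbb2 lines it ran from 5.68 to 7.61. Itgb5, also a partner of Itgav, ran from 6.71 to 9.82 in NSC alone, and its difference for both tumour groups was -0.84 (SE 0.78, limma adjusted p = 0.784). Itgb4, the hemidesmosome partner of Itga6, differed by 0.14 (SE 0.26, limma adjusted p = 0.902). Itgb6, the epithelial partner of Itgav, was under the dim limit on all 9 arrays. The leukocyte chains Itgb2 and Itgb7 differed by 0.16 (SE 0.31, limma adjusted p = 0.909) and -0.08 (SE 0.21, limma adjusted p = 0.930).

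**Figure D4:**
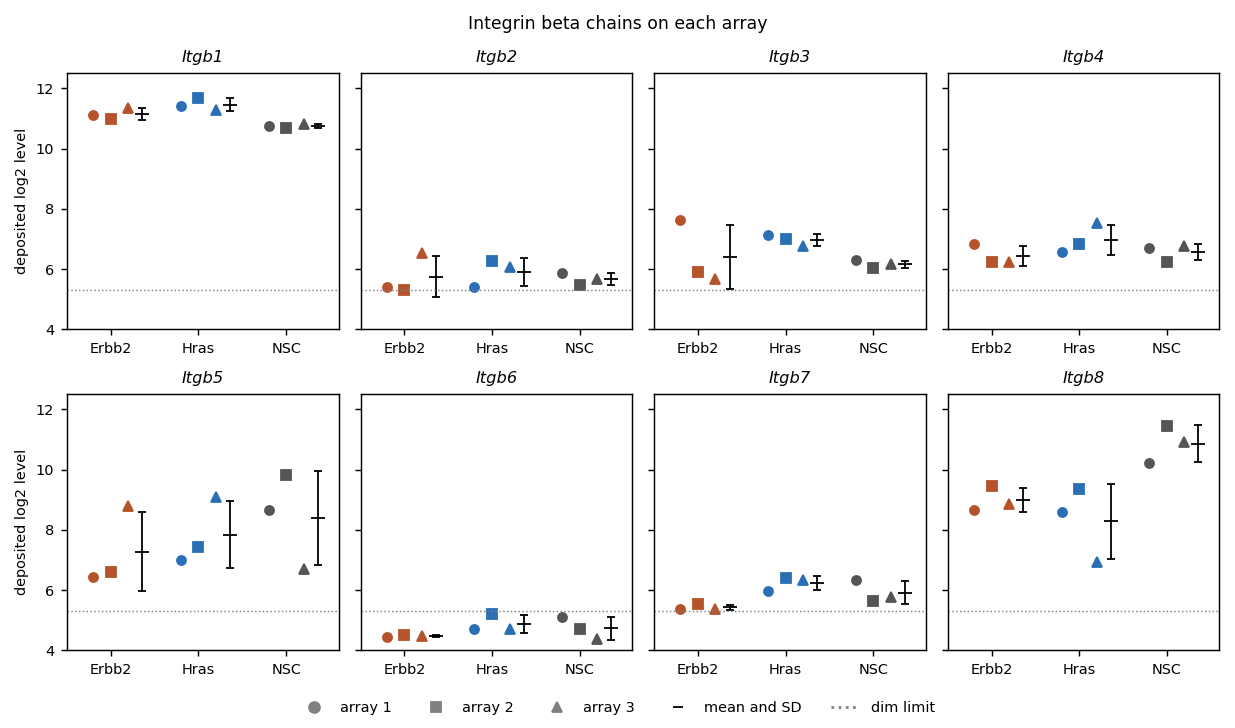
Deposited log2 level of the 8 beta chains on the 9 arrays, by group, with the mean and SD (n = 3) as a black bar and the dim limit of 5.31 as a dotted line. Itgb1 lies slightly higher and Itgb8 lower on all 6 tumour arrays than on the NSC arrays, and Itgb6 is dim throughout.

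The 8 alpha chains outside the set, Itga2b, Itga10, Itga11, Itgad, Itgae, Itgal, Itgam and Itgax were measured too. Limma called 0 of 8 in each comparison. At an unadjusted limma p under 0.05 there were 5 of 8 between the oncogenes, where 2625 of all 20690 genes were. In Erbb2 lines against NSC there were 2 of 8, where 1909 of all genes were, and 0 in the others. Between the oncogenes 8 of 8 were higher in Hras lines, with a median of 0.57, where 78.8% of all genes were higher. Of the 8, 7 did not overlap as deposited, where 27.7% of all genes did not. The Hras arrays had the highest medians over genes on that scale. Overlap under the other scalings is not given, so this count does not show a separation apart from array scale. The median was 0.15 after quantile normalization, with 7 positive, and 0.15 with centred arrays, with 8 positive. In Erbb2 lines against NSC 8 of 8 differences were negative, where 36.7% of all genes were above 0, and 6 of 8 after quantile normalization. Of the 8, 4 were wholly lower as deposited, where 12.6% of all genes were. Itga2b, the platelet chain, differed most, by -0.88 in Erbb2 lines against NSC (SE 0.23, limma adjusted p = 0.275). Most of these chains were near the dim limit of 5.31. Itgae, a chain of epithelial lymphocytes, ran from 4.78 to 5.94 over all arrays. Itgal ran from 4.93 to 6.23, Itgam from 4.70 to 5.75 and Itgax from 4.71 to 5.71. Itga11 and Itgad also reached under the limit, while Itga2b and Itga10 lay above it on all arrays.

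The pathway list held 94 ligand, beta, adaptor and partner genes, which include the 8 other alpha chains. For the tumour groups averaged against NSC limma called 1 of 94, against 0.353% of all genes. At an unadjusted limma p under 0.05 there were 17, where 2078 of all 20690 genes were. The calls over all genes in that comparison were 53 higher and 20 lower, and became 2 and 10 after quantile normalization and 8 and 15 after centring. In Hras lines, Erbb2 lines and between the oncogenes limma called 0 of 94, where 0%, 0.00967% and 0% of all genes were called. The counts at an unadjusted limma p under 0.05 were 21, 15 and 22, where they were 2481, 1909 and 2625 of all 20690 genes. The gene called was the laminin chain Lama4, a part of vascular and mesenchymal laminins. Lama4 had 9.86, 8.96 and 9.04 in Erbb2 lines, 9.32, 9.76 and 9.02 in Hras lines and 6.30, 7.27 and 5.41 in NSC. It rose by 3.00 (SE 0.40, limma adjusted p = 0.0321), and the call was lost after quantile normalization, after centring, and without Erbb2 1, Hras 1, Hras 2 or any NSC array (adjusted p up to 0.0951). Among the 11 laminin chains the median difference was -0.06, with 5 positive. Between the oncogenes 9 were higher in Hras lines (median 0.52), where 78.8% of all genes were, and 6 under either other scaling.

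Ligands of Itga8, Itga4 and Itga9 were compared next. Npnt, the nephronectin gene, had 9.36, 6.70 and 6.60 in Erbb2 lines, 10.22 and 8.19 in Hras lines 1 and 2 and 9.10, 8.14 and 7.36 in NSC, with Hras 3 below NSC 3, so that all groups overlapped (difference -0.19, SE 0.81, limma adjusted p = 0.964). Tnc, tenascin C, ranged from 9.99 to 12.35 and differed by 0.03 (SE 0.56, limma adjusted p = 0.994). Vcam1 ran from 5.52 in Erbb2 1 to 11.01 in Hras 3, with NSC between 7.50 and 8.40 (difference 0.36, SE 1.16, limma adjusted p = 0.948). Vcam1 was low in Erbb2 1, Erbb2 2 and Hras 1 and high in Erbb2 3, Hras 2 and Hras 3, as Itga7 also was.

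Emilin1, an elastic fibre protein bound by Itga4 and Itga9, had 7.73 and 7.92 in Erbb2 lines 2 and 3 and its highest level in Erbb2 1, 8.48, 8.24 and 8.11 in Hras lines and 6.99, 6.17 and 6.38 in NSC. The tumour lines lay wholly above NSC, by 1.73 (SE 0.31, limma adjusted p = 0.0666). Of the 12 collagen genes 6 had a positive difference for both tumour groups, with a median of -0.008, an average over tumour groups that differed. Between the oncogenes 12 of 12 were higher in Hras lines, with a median of 0.78, where 78.8% of all genes were higher. Of the 12, 9 did not overlap as deposited, where 27.7% of all genes did not. At an unadjusted limma p under 0.05 there were 9 of 12, where 2625 of all 20690 genes were. Both counts rest on the deposited scale, on which the Hras arrays had the highest medians over genes. Neither is given under the other scalings, so they do not show a separation apart from array scale. Under quantile normalization (median 0.37) and centring (median 0.36) 11 of 12 were higher. In Erbb2 lines against NSC 1 of 12 was positive under each scaling, with 6 wholly lower as deposited, where 12.6% of all genes were. As deposited, 36.7% of all genes were positive in that comparison. In Hras lines against NSC 11 of 12 were positive, where 68.5% of all genes were, but 6 of 12 under either other scaling. Limma called 0 of 12 in each comparison. Col6a1 and Col6a2 differed most, by 1.25 and 1.03 in Hras lines against NSC (limma adjusted p = 0.292 and 0.315). Of the 13 Arg-Gly-Asp and related matrix ligands 10 were positive for both tumour groups, with a median of 0.44, where 51.4% of all genes were. With centred arrays 7 were, with a median of 0.26 where that of all genes was -0.17. In Hras lines against NSC 13 of 13 were positive, with a median of 0.92, where 68.5% of all genes were. After quantile normalization 10 were, and with centred arrays 7 were, with a median of 0.53 where that of all genes was -0.23. Spp1, osteopontin, had 9.22, 8.60 and 9.67 in Erbb2 lines, 9.74, 11.37 and 13.11 in Hras lines and 8.66, 5.30 and 7.97 in NSC (difference in Hras lines 4.10, SE 0.97, limma adjusted p = 0.156). Fn1, fibronectin, ran from 6.81 to 11.46 with overlap in all groups (difference for both tumour groups 0.44, SE 1.05, limma adjusted p = 0.926).

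Inside the cell, 21 of 26 talin, kindlin and adhesion adaptor genes had a positive difference for both tumour groups against NSC, with a median of 0.46 where that of all genes was 0.01 and 51.4% were above 0. Limma called 0 of 26. At an unadjusted limma p under 0.05 there were 5 of 26, where 2078 of all 20690 genes were. With centred arrays 18 were positive, with a median of 0.28 where that of all genes was -0.17. Tns2, a tensin that links integrin tails to actin, had 10.03, 7.98 and 8.36 in Erbb2 lines, 8.75, 8.38 and 8.08 in Hras lines and 6.11, 6.56 and 7.28 in NSC (difference 1.95, SE 0.45, limma adjusted p = 0.150). Actn1, an actin crosslinker, differed by 2.29 in Hras lines against NSC (SE 0.88, limma adjusted p = 0.355). Of 12 lateral partners, such as tetraspanins and syndecans, 9 were positive with a median of 0.46, beside the same 51.4% and 0.01 of all genes. With centred arrays 7 were, with a median of 0.28 where that of all genes was -0.17. Limma called 0 of 12. At an unadjusted limma p under 0.05 there were 2 of 12, where 2078 of all 20690 genes were. Plaur, the urokinase receptor, differed by 2.56 in Hras lines against NSC (SE 0.80, limma adjusted p = 0.254), and the syndecan Sdc4 by -1.51 in Erbb2 lines (SE 0.90, limma adjusted p = 0.585).

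The genes beside the alpha chains on their chromosomes were compared as well, since overlapping genes can share probes. Apart from Itga1 and Itga2, which adjoin each other and are described above, the RefSeq table lists 31 genes that overlap or adjoin the 10 chains, of which 20 were measured. Limma called 0 of these 20 in each comparison, and averaged over the tumour groups they differed by -0.45 to 0.70. At an unadjusted limma p under 0.05 there were 2 in Hras lines against NSC and 2 between the oncogenes. Of all 20690 genes 2481 and 2625 were, and the other comparisons had 0 of the 20. Pelo, a gene within Itga1, differed by -0.16 (SE 0.18, limma adjusted p = 0.821), and Cerkl, which overlaps Itga4, by 0.62 (SE 0.31, limma adjusted p = 0.544). For Itga8 the measured neighbour was Mindy3, at 0.19 (SE 0.35, limma adjusted p = 0.898).

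Marker lists of the cell types that a culture could hold were read on the same arrays. Of 10 neural stem cell and radial glia markers 9 or 10 were above the dim limit on each array, with a mean level of 9.22 to 9.83 in tumour lines and 9.81 to 10.32 in NSC. Itga8 and Itga1 are also known from smooth muscle and other mesenchymal cells, and 10 markers of pericytes, smooth muscle and fibroblasts had a mean level of 5.52 to 5.63 in Erbb2 lines, 5.84 to 6.28 in Hras lines and 5.95 to 6.54 in NSC. On this list the Erbb2 lines lay below NSC and the Hras lines overlapped NSC. The markers differed among themselves. Acta2, smooth muscle actin, was at 6.24 to 8.29 in tumour lines and 8.27 to 10.08 in NSC, and Tagln at 4.93 to 6.28 and 6.86 to 8.71. Pdgfrb, a pericyte receptor, was at 6.55 in Erbb2 3, 6.26 in Hras 2 and 6.91 in Hras 3, above the 5.35 to 5.93 of NSC, while the other tumour lines lay between 5.17 and 5.69. Des, Myh11, Col1a1 and Col1a2 were dim on 0 arrays, Rgs5 on 7, Dcn on 8 and Lum on 9. Leukocyte markers, of note for Itga4, had mean levels of 5.27 to 5.46 in Erbb2 lines, 5.59 to 6.06 in Hras lines and 5.39 to 5.78 in NSC, with Ptprc dim on 8 arrays, Aif1 on 9, Itgam on 6, Tyrobp on 4, Csf1r on 3, and Cx3cr1 and Cd68 on 0 (Cd68 6.37 to 8.47). Endothelial markers were at 4.95 to 5.96 throughout. Of the other lists, 6 astrocyte markers had mean levels of 5.77 to 7.97 in Erbb2 lines, 5.68 to 7.41 in Hras lines and 8.67 to 9.97 in NSC. This mean was lower in all tumour lines, but the markers differed. Aldh1l1 and Mlc1 lay below NSC in every tumour line, while Aqp4, Gfap, Gja1 and Slc1a2 overlapped NSC. Gja1 had its highest level, 11.12, in Hras 3. Neuronal markers were at 6.69 to 7.70 in tumour lines and 7.19 to 7.29 in NSC, and ependymal markers at 5.54 to 6.17 and 5.81 to 6.48. The 7 oligodendrocyte precursor markers had a mean level of 8.53 to 11.09 in Erbb2 lines, 8.20 to 10.66 in Hras lines and 8.25 to 8.69 in NSC. Among them Pdgfra, the growth factor receptor of these precursors, was at 11.40, 10.68 and 9.06 in Erbb2 lines, 11.89, 10.10 and 9.60 in Hras lines and 5.79, 5.64 and 5.16 in NSC. It thus lay higher on all 6 tumour arrays than on the NSC arrays, as Itga8, Itga1, Itga4 and Itga9 did. Cspg4, Sox10 and Gpr17 were above every NSC array in Erbb2 1, Erbb2 2, Hras 1 and Hras 2 but not in Erbb2 3. In Hras 3 Cspg4, at 8.24, was above every NSC array, while Sox10 at 6.56 and Gpr17 at 5.48 were not. Olig1, Olig2 and Ptprz1 overlapped between tumour lines and NSC. The part of these lists in the levels of Itga8, Itga1, Itga4 and Itga9 was not tested.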

How the data were processed

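The authors deposited a gene table of log2 values and a value table of linear intensity values for 35512 probe sets. Background correction, normalization and probe summary were not given in the sources used. Rows with a number in place of a symbol (25) were left out, leaving 20690 genes. Each of the 10 chains equalled the log2 of 1 deposited probe set's intensity on all arrays (tolerance 1e-04). All value columns were matched to samples by their labels, leaving 0 unmapped. limma 3.58.1 in R 4.3.3 fitted group means on all 9 arrays (lmFit, eBayes, 6 residual and 3.12 prior degrees of freedom), with Benjamini-Hochberg adjusted p over all genes and calls under 0.05. The fit was checked on simulated data. Levels under 5.31, the 25th percentile, are called dim. The number of arrays limits the precision.

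The members and lists were chosen with earlier results of these data known. All 94 list genes and 56 markers were found, in part by older symbols. Named genes are all 10 chains and all beta chains, called members or else the 2 largest differences of each other list, the ligands Npnt, Fn1, Vcam1 and Tnc, the 3 genes most like each of the 3 chains of widest range, and neighbours. Genes outside this rule (Foxf1's level in Hras 3, single markers) were picked after their values were seen. Alternatives were quantile normalization, centring, a dim filter, a replicate block, array weights, the compared groups alone and leaving out each array. A mean over all probe sets of a gene was not run, as no table used here names probe sets. The labels' descriptions open with a number of unstated meaning. Each of 1, 2 and 3 is on 1 Erbb2 and 1 Hras array and equals the title's replicate number, so between the oncogenes the replicate block covers it. The NSC arrays carry 4, 4 and 5, so against NSC this number and the group cannot be told apart, and the block used the title's numbers there.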

Additional observations from a re-analysis of the deposited data

Results flagged for a closer look

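For 5 of the 104 genes compared, all Hras lines lay on one side of the NSC mean and all Erbb2 lines on the other. None was an alpha chain of the set described. The Hras minus Erbb2 log2 differences were 0.63 for Itgae, 0.81 for Itgb7, 0.61 for Col3a1, 0.65 for Lamb3 and 1.97 for Parvb, an adaptor of the integrin-linked kinase. Tested directly, each had a limma adjusted p = 0.391. The median of all genes in this comparison was 0.29, and against NSC it was 0.16 in Hras lines and -0.14 in Erbb2 lines. With centred arrays 0 of the 8 other alpha chains, which include Itgae, had a positive difference in Hras lines against NSC. The pattern of single lines was not checked with centred arrays, and its share over all genes was not counted. Itgae, Itgb7, Col3a1 and Lamb3 had Hras lines 0.03 to 0.61 above and Erbb2 lines -0.60 to -0.20 from the NSC mean, with NSC arrays from -0.31 to 0.55. Parvb in Hras 3, at 9.77, was far above the 7.05 and 7.74 of Hras 1 and 2.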

How the results depend on the processing

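Under every alternative run, Itga8, Itga1, Itga4 and Itga9 kept a positive difference from NSC in both tumour groups, of 3.83 to 4.74 (Itga8), 2.51 to 3.40 (Itga1), 2.32 to 3.03 (Itga4) and 1.43 to 2.95 (Itga9) in Hras lines. The median of the 10 chains over the removals of an array was 1.43 to 1.76 in Hras lines, 0.33 to 1.05 in Erbb2 lines and 0.86 to 1.15 in both against NSC, and 0.005 to 0.81 between the oncogenes (0.16 with centred arrays). Signs of small differences turned: Itga7 in Hras lines was 1.13 without Hras 1 and 0.70 without NSC 3, and Itga6 0.28 without Hras 1. Of the 94 pathway genes, the 1 call for both tumour groups became 0 after quantile normalization or centring, 0 to 1 without an array, and 2 with the replicate block (Lama4 and Emilin1). The numbers are not stated to pair samples. Deviations of same-numbered arrays correlated at -0.34 to 0.44 (median 0.08), above 0.1 in 4 of 9 pairs. Those of differently numbered arrays correlated at -0.56 to 0.43 (median 0.06), above 0.1 in 7 of 18 pairs. Of the 9 arrays, 4 correlated best with their own number. The block moved the calls over all genes from 73 to 92 for both tumour groups, from 2 to 27 for Erbb2 lines and from 0 to 9 for Hras lines, and left 0 between the oncogenes. Without 1 array these calls ran from 0 to 70, 0 to 13 and 0 to 76, and array weights gave 90, 37 and 70. With quantile normalization they were 12, 1 and 2, and with centring 23, 2 and 1. Without dim genes they were 77, 8 and 0, and with the compared arrays alone 8 and 20. A mean over all probe sets of a gene was not run. Without a detection call per gene, levels near 5.31 limit the size of the differences of Itga8 and Itga9.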
